A study of Homo sapiens with 8 samples.

Results

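Mitochondrial ribosomal proteins are encoded in the nucleus, made in the cytosol and imported into mitochondria, where they assemble with rRNA into a small and a large subunit. The finished ribosome translates the few messages of mitochondrial DNA, which encode core subunits of the respiratory chain, so the amount of this machinery bears on how much respiratory chain a cell can build. Some of its proteins descend from the ribosome of the bacterial ancestor and have a counterpart in bacteria, and others were added in the mitochondrial lineage. The gene symbols start with MRPL for proteins named for the large subunit and MRPS for proteins named for the small subunit.

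The members described here were every row of the deposited expression table whose symbol was MRPL or MRPS followed by a number, 78 of 18406 rows. The rule reads symbols only, although it was set with earlier results of these data known. Of the 78, 76 were protein-coding symbols, 47 MRPL and 29 MRPS, and 2 were pseudogenes (MRPL42P5 and MRPL45P2). Members with a mean of at least 10 over the libraries were tested. That left 76, of which 75 were protein-coding, and the untested ones were MRPS24 and MRPL42P5. The 75 protein-coding members with a chromosome in the RefSeq gene table lay on 21 chromosomes, with no more than 8 on any of them.

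The cells were 92.1, an established human uveal melanoma line. They were treated for 24 h with 10 nM trametinib, an inhibitor of the kinases MEK1 and MEK2, with 10 nM panobinostat, an inhibitor of histone deacetylases, with both drugs, or with the vehicle DMSO. Each of the 4 groups had 2 libraries of total RNA, and all were in the same line and medium. The vehicle and trametinib libraries are numbered together in the series, and the panobinostat and combination libraries in a separate range of sample numbers. Any difference between these sets cannot be told apart from panobinostat in panobinostat or the combination against vehicle, or the combination against trametinib. The label of the panobinostat libraries also calls that drug a MEK inhibitor, and the label of the combination gives 10 nM once, so 10 nM of each drug is assumed. No label says that replicates came from separate cultures, so a p-value here speaks of the variation among libraries and that variation may be technical.

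The values are reads divided by a size factor for each library, called signal below, and signal is not scaled by gene length. The libraries held between 6897784 and 16861001 reads in genes. Trametinib replicate 2 stood apart: 5362 genes were at 0 there and 3743 in replicate 1, whereas the remaining 6 libraries had between 2222 and 2890 such genes. Members differed between the trametinib replicates by a median of 0.37 on the log2 scale, against 0.12 with panobinostat, 0.16 in the combination and 0.09 in vehicle. Over all tested genes these medians were close to that, at 0.34, 0.15, 0.17 and 0.11. By group, 7 members differed by more than 1 between the trametinib replicates, and 1 (the pseudogene MRPL45P2) between the combination replicates. All groups share 1 estimate of the spread in the test, so these libraries also weigh on comparisons that do not involve them. Markers of the melanocytic lineage were high, with sums over 8 genes of 99950 to 175142 in the 8 libraries, although S100B stayed at or below 12.2. DCT had 1984 and 1912 under trametinib, 5.10 and 10.1 under panobinostat and 258 and 236 under both, against 14.4 and 4.75 in vehicle. Of the 3 measured epithelial, 4 fibroblast, 4 endothelial, 3 measured immune and 3 retinal pigment epithelial markers, the summed signals were 3.96 to 80.6, 147 to 956, 0 to 144, 615 to 1498 and 177 to 794. The higher of these sums came from COL1A1, CD68 and BEST1, whereas CDH5 was at 0 in all libraries and EPCAM, DCN, PTPRC and RPE65 were at or below 12.2. COL1A1, PDGFRA, CD68 and BEST1 were higher in all 6 treated libraries than in vehicle. VWF had 144 and 85.4 under trametinib, 3.06 and 0 under panobinostat and 41.0 and 30.4 under both, against 1.20 and 1.58 in vehicle. The part of other cells in the results below was not tested.

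Where members share promoter features, these are shown first, because the family is spread over the genome. Windows from 250 bases before to 50 after the start were taken from RefSeq (GRCh38.p14), using the first listed start, and 67 of the 78 members had one. The ETS letters CCGGAAG, bound by GABP and related factors, stood on either strand in 28 of the 67 (41.8%), against 10.7% of 27305 promoters of the same length. That larger set also holds promoters of genes that were not tested here. Shares among tested genes alone may differ and are not given. The YY1 letters AAGATGGC stood in 20 (29.9%), against 3.03% of all promoters. The NRF1 letters GCGCATGC stood in 6 (8.96%), against 3.27%, and the E-box CACGTG, bound by MYC among others, also in 6 (8.96%), against 7.43%. In 8 members both the ETS and the YY1 letters were found, and in 0 of them did the matches share bases. The stretches below are the 90 bases before the start, on the strand of the gene, with each match on either strand in capitals. They show genes that fell strongly with trametinib (MRPS34, MRPL17, MRPS26 and MRPL3) beside genes that did not fall with it (MRPL33 and MRPS21). They lie at chr16:1773135-1773224 (minus strand) for MRPS34, chr11:6683341-6683430 (minus) for MRPL17, chr20:3045962-3046051 (plus) for MRPS26, chr3:131502972-131503061 (minus) for MRPL3, chr2:27771629-27771718 (plus) for MRPL33 and chr1:150293771-150293860 (plus) for MRPS21.
MRPS34: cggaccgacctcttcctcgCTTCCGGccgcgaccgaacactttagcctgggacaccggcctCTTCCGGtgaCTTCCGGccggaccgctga
MRPL17: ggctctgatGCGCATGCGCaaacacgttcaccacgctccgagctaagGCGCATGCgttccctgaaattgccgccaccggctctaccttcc
MRPS26: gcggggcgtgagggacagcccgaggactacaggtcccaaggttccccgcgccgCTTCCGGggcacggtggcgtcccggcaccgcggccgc
MRPL3: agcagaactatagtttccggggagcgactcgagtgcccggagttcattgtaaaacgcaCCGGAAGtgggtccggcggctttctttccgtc
MRPL33: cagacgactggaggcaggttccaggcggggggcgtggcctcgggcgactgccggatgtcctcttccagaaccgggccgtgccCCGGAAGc
MRPS21: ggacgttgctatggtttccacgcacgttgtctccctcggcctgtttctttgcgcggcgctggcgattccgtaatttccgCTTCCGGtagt

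In these stretches MRPS34 holds 3 ETS matches, MRPS26, MRPL3, MRPL33 and MRPS21 hold 1 each, and MRPL17 holds 3 NRF1 matches, a pair of which share bases on opposite strands. The ETS letters were thus found in members that fell and in members that did not. MRPL12 and MRPS2, which also fell strongly with trametinib, held none of the letters looked for in their windows and are not shown. Of the 34 members with a promoter window that fell with trametinib, 11 (32.4%) held the ETS letters, against 17 (54.8%) of the 31 that did not pass. The E-box was found in 1 of the 34 (2.94%) and in 5 of the 31 (16.1%), and the YY1 letters in 10 of the 34 and 9 of the 31. These matches are a description of the letters in these windows.

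As a whole the family was lower after each treatment, and most so in the combination. The summed signal of the 78 members was 27179 and 27524 under trametinib, 32237 and 32640 under panobinostat and 25291 and 24496 under both, against 42403 and 42598 in vehicle. The means were 64.4%, 76.3% and 58.6% of the vehicle mean for trametinib, panobinostat and the combination. No drug library overlapped vehicle, and the groups did not overlap each other. As a share of all signal, the family held 0.261% ± 0.00129 with trametinib, 0.317% ± 0.00159 with panobinostat, 0.237% ± 0.00433 in the combination and 0.419% ± 0.00158 in vehicle (SD, n = 2 each). No p is given for these sums, since the smallest exact permutation p for 2 against 2 libraries is 0.333. In bulk RNA, fewer cells that express a gene and less of its RNA per cell cannot be told apart.

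**Figure D1:**
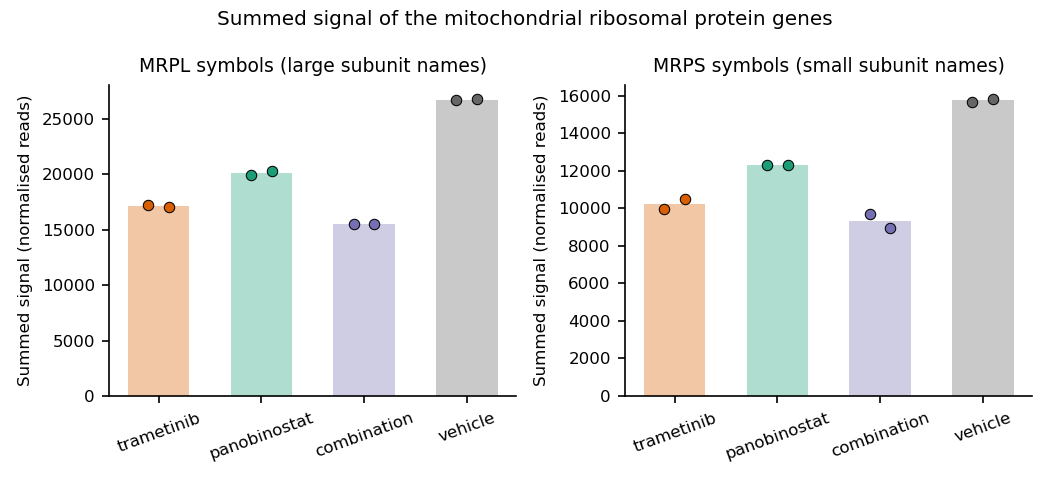
Summed signal (normalised reads) of the MRPL symbols and of the MRPS symbols, in separate panels. Points are libraries and bars are group means, from left trametinib, panobinostat, combination and vehicle. MRPL sums were 17216 and 17045, 19939 and 20331, 15569 and 15517, and 26703 and 26783, and every treated library lies below vehicle in each panel.

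Both kinds of symbol took part. The MRPS sums were 9963 and 10479 under trametinib, 12298 and 12309 under panobinostat and 9722 and 8979 under both, against 15699 and 15815 in vehicle. The tested members had a median signal of 375, against 276 over all 13320 tested genes, and ranged from 48.1 to 1170.

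The first comparison, trametinib against vehicle, asks what blocking MEK does to these transcripts. Of the 76 tested members, 40 fell and 1 rose by limma (52.6% and 1.32%, adjusted p under 0.05 over all genes), where 27.4% of all tested genes fell and 23.7% rose. The median log2 change was -0.62 over members, against -0.07 over all tested genes. In all 40 the 2 trametinib libraries lay below both vehicle libraries, which follows largely from the call with so few libraries. Of the 40, 17 (22.4% of the tested members) were lower by at least 2-fold. Among all tested genes, 15.2% passed with such a fall. The median change over members was -0.61 without trametinib replicate 1 and -0.64 without replicate 2. Over all tested genes it was -0.08 and -0.01. The 1 rise was lost without either vehicle library.

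Among small subunit proteins, the largest fall was that of MRPS26, a protein without bacterial counterpart. It had 69.2 and 49.2 with trametinib, against 413 and 379 in vehicle. The groups were far apart, and the change was -2.74 ± 0.25 (log2 ± SE, limma adjusted p = 1.59e-05), 6.68-fold lower. MRPS2, which in bacteria sits where the head of the small subunit meets its body, had 337 and 303 with trametinib, against 1203 and 1241 in vehicle. It was lower by 3.81-fold (adjusted p = 7.45e-06, limma). MRPS34, needed for a stable small subunit, had 736 and 581 with trametinib, against 1955 and 1845 in vehicle. Its change was -1.54 ± 0.14 (adjusted p = 1.59e-05, limma). MRPS12, a protein of the decoding centre, had 153 and 126 with trametinib, against 361 and 428 in vehicle, a change of -1.50 ± 0.19 (adjusted p = 0.000164, limma). In each of these 4 genes both trametinib libraries were well below both vehicle libraries.

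MRPS11, a small subunit protein with a bacterial counterpart, moved the other way. It had 515 and 631 with trametinib, against 380 and 400 in vehicle, and changed by 0.55 ± 0.16 (adjusted p = 0.0177, limma). It was the 1 member that rose with trametinib in the fit to all libraries, and its changes with panobinostat (0.07) and in the combination (0.11) did not pass. An exon of MRPS11 overlaps another gene on the opposite strand in GENCODE 29, and no source used here says if the counting used strand.

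Among large subunit proteins, MRPL12 and MRPL17 fell by 4.10-fold and 4.02-fold. MRPL12 forms part of the stalk that recruits translation factors and also binds the mitochondrial RNA polymerase. It had 252 and 173 with trametinib, against 911 and 811 in vehicle, a change of -2.04 ± 0.18 (adjusted p = 1.43e-05, limma). MRPL17 had 114 and 226 with trametinib, against 675 and 626 in vehicle, so that the 2 trametinib libraries differed widely from each other and still lay below vehicle (adjusted p = 0.000251, limma). MRPL3, which reaches towards the peptidyl transferase centre, had 512 and 725 with trametinib, against 1669 and 1803 in vehicle, a change of -1.51 ± 0.15 (adjusted p = 2.63e-05, limma).

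MRPL1, a protein of the mobile stalk next to the tRNA exit site, carried the largest fitted change, and that value rested on 1 library. Its signal was 66.2 and 0 with trametinib, against 111 and 134 in vehicle. The fit gave -3.91 ± 1.46 (adjusted p = 0.0491, limma), and without trametinib replicate 2 the change was -0.87. The call was lost with edgeR, DESeq2, TMM scaling, no filter on low values and the 2 groups alone, and without any 1 of the vehicle, panobinostat or combination libraries. The size of a fitted change against a library at 0 depends on the added value of 1. MRPL40, a mitochondria-specific protein, also split between the libraries, with 237 and 41.2 with trametinib, against 268 and 271 in vehicle, and did not pass.

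**Figure D2:**
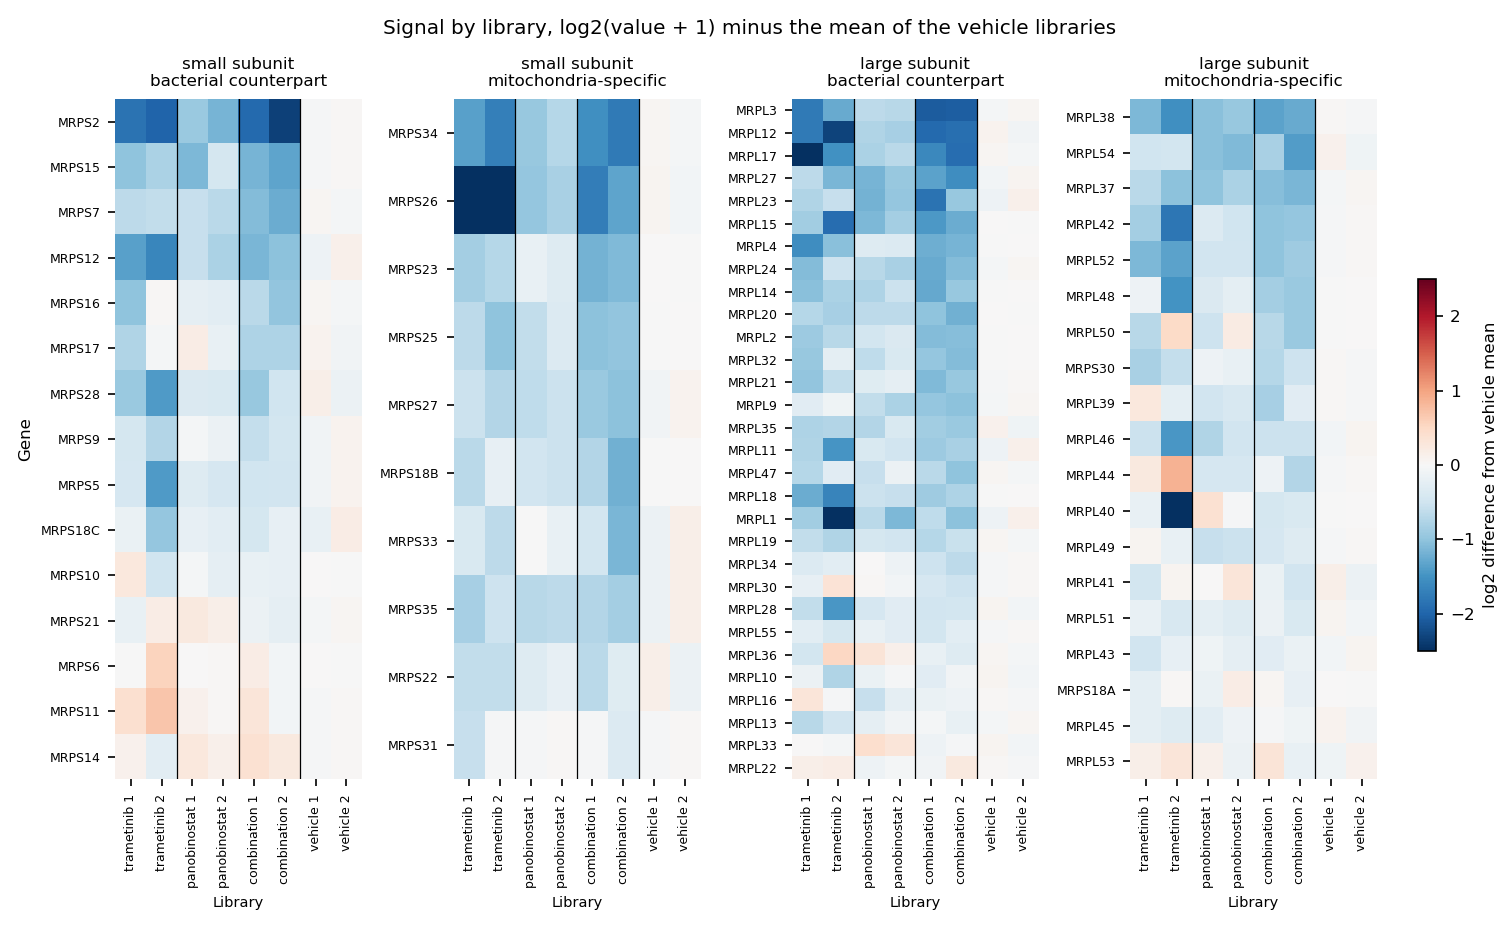
Signal of the tested members with a place in the ribosome, in each library, as log2(value + 1) minus the mean of the 2 vehicle libraries. Columns run from trametinib through panobinostat and combination to vehicle, members are ordered by their change in the combination, and the colour scale ends at 2.5 in each direction. Blue, lower than vehicle, fills most of the treated columns, and MRPL1 and MRPL40 are at their darkest in trametinib replicate 2.

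The members were also read by their place in the ribosome, under present nomenclature. With trametinib, 20 of 30 large subunit proteins with a bacterial counterpart fell (median -0.76), as did 7 of 10 small subunit proteins specific to mitochondria (-0.65) and 7 of 15 small subunit proteins with a counterpart (-0.56). Of the 19 large subunit proteins specific to mitochondria, 6 fell (31.6%, median -0.34), a share near the 27.4% of all genes. MRPS18A and MRPS30 are counted with the large subunit, where their proteins sit despite the names. Differences between these classes were not tested.

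Paralogues need not move alike. MRPS18A, MRPS18B and MRPS18C encode related proteins that occupy different places, the first in the large subunit. MRPS18A had 284 and 345 under trametinib, 302 and 384 under panobinostat and 350 and 295 under both, against 342 and 335 in vehicle, and each treated group overlapped vehicle. MRPS18B had 387 and 537 under trametinib, 446 and 426 under panobinostat and 373 and 269 under both, against 615 and 623 in vehicle. All of its treated libraries were below vehicle, and the combination change of -0.96 ± 0.19 passed (adjusted p = 0.00232, limma). MRPS18C had 278 and 159 under trametinib, 271 and 260 under panobinostat and 229 and 268 under both, against 272 and 355 in vehicle, and passed in none of these comparisons. Differences between the paralogues were not tested.

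Panobinostat against vehicle asks what blocking histone deacetylases does. Of the 76 members, 26 fell and 1 rose (34.2% and 1.32%, limma), where 15.6% of all tested genes fell and 15% rose. The median log2 change was -0.38, against 0.00 over all genes. Of the 26, 4 were lower by at least 2-fold (5.26% of the tested members), a share near the 4.06% of all tested genes. The number of these calls changed with the libraries in the fit. Shares of all tested genes under the same settings are not given. With the panobinostat and vehicle libraries alone in the fit, 47 fell and 2 rose. Without trametinib replicate 1 or 2, 42 fell in each case. Without panobinostat replicate 1 or 2 the counts were 7 and 10, and without vehicle replicate 1 or 2 they were 7 and 8.

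The largest panobinostat falls were close to 2-fold. MRPL54, specific to mitochondria, had 57.1 and 54.4 with panobinostat, against 128 and 109 in vehicle (adjusted p = 0.0355, limma). MRPL23, which lies at the exit of the peptide tunnel, had 176 and 205 with panobinostat, against 368 and 434 in vehicle (adjusted p = 0.0168, limma). Both fell by 2.10-fold with groups well apart, and both calls were lost without any 1 of the 2 panobinostat or 2 vehicle libraries. MRPL27, near the peptidyl transferase centre, had 273 and 318 with panobinostat, against 586 and 637 in vehicle (-1.05 ± 0.19, adjusted p = 0.0028, limma). MRPS2 had 640 and 546 with panobinostat, against 1203 and 1241 in vehicle (-1.05 ± 0.15, adjusted p = 0.00106, limma). MRPL38, a large subunit protein specific to mitochondria, had 275 and 292 with panobinostat, against 577 and 554 in vehicle (-0.99 ± 0.17, adjusted p = 0.00225, limma). The calls of MRPL27, MRPS2 and MRPL38 held under every alternative.

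MRPL33, a small protein of the large subunit with a bacterial counterpart, was the member that rose with panobinostat. It had 1153 and 1056 with panobinostat, against 902 and 817 in vehicle, a change of 0.36 ± 0.096 (adjusted p = 0.019, limma) that was lost without any 1 of the panobinostat or vehicle libraries. With trametinib it had 860 and 834 and in the combination 784 and 837, both groups overlapping vehicle. MRPL33 was lower in the combination than with panobinostat (-0.45 ± 0.096, adjusted p = 0.00865, limma), a call lost without panobinostat replicate 1 or combination replicate 1.

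By place in the ribosome, 12 of 30 large subunit proteins with a counterpart were lower with panobinostat than in vehicle (median -0.45). So were 5 of 10 small subunit proteins specific to mitochondria (-0.49), 4 of 15 small subunit proteins with a counterpart (-0.23) and 5 of 19 large subunit proteins specific to mitochondria (-0.31). Over all tested genes 15.6% fell, so the shares of the last 2 classes (26.7% and 26.3%) were closer to the background than those of the others.

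**Figure D3:**
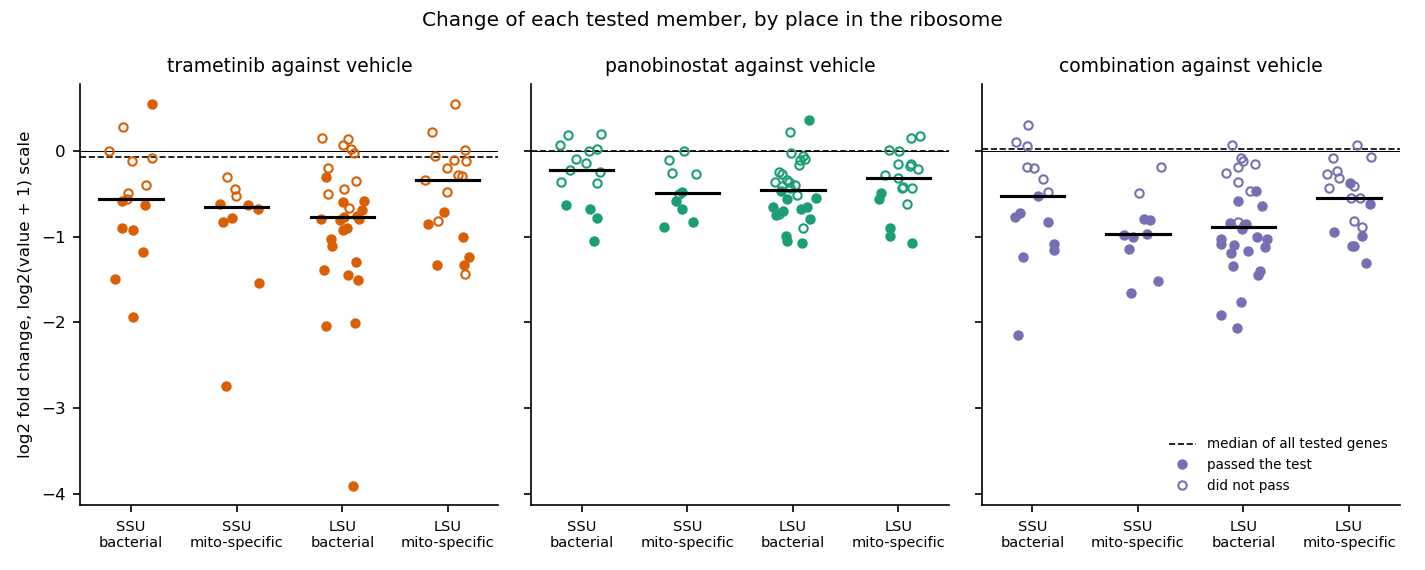
Log2 fold change of each tested member on the log2(value + 1) scale, by place in the ribosome (SSU, small subunit; LSU, large subunit; bacterial, with a bacterial counterpart), for trametinib, panobinostat and the combination against vehicle. Filled points passed the test, open points did not, short bars are class medians, and the dashed line is the median of all 13320 tested genes. Class medians lie below the dashed line in all 3 panels, from -0.97 to -0.23.

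In the combination against vehicle, 44 of the 76 members fell and 0 rose by limma (57.9% and 0%), where 25.5% of all tested genes fell and 24.5% rose. The median log2 change was -0.80, against 0.03 over all genes. Of the 44, 24 were lower by at least 2-fold (31.6% of the tested members), where 11.9% of all tested genes passed with such a fall. At an unadjusted p under 0.05, 0 members were higher, and edgeR and DESeq2 called 0. The 0 rises became 1 with the 2 groups alone, with library weights or without either trametinib library. The counts by place were 21 of 30 large subunit proteins with a counterpart (median -0.88), 8 of 10 small subunit proteins specific to mitochondria (-0.97), 8 of 15 small subunit proteins with a counterpart (-0.52) and 7 of 19 large subunit proteins specific to mitochondria (36.8%, median -0.54).

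The 5 largest falls were those of MRPS2, MRPL3, MRPL12, MRPL17 and MRPS34. MRPS2 had 317 and 240 in the combination, against 1203 and 1241 in vehicle, and was 4.41-fold lower (adjusted p = 4.38e-06, limma). MRPL3 had 409 and 417 in the combination, against 1669 and 1803 in vehicle, and was 4.20-fold lower (adjusted p = 3.89e-06, limma). For both, the combination libraries lay far below vehicle and close to each other. MRPL12 had 222 and 233 in the combination (3.76-fold lower than vehicle), MRPL17 212 and 172 (3.39-fold lower) and MRPS34 654 and 555 (3.15-fold lower). Their limma adjusted p-values were 2.31e-05, 0.000575 and 1.1e-05, in that order.

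MRPS22 and MRPS16 are known from inherited mitochondrial disease, as are MRPS12, MRPL3 and MRPL44, described elsewhere. MRPS22, a mitochondria-specific protein of the small subunit, had 199 and 196 under trametinib, 241 and 261 under panobinostat and 189 and 246 under both, against 333 and 275 in vehicle. It passed under trametinib (-0.62 ± 0.19, adjusted p = 0.0241, limma) and in neither other comparison with vehicle, and that call was lost without either vehicle library, with the 2 groups alone and with library weights. MRPS16, a small subunit protein with a counterpart, had 392 and 812 under trametinib, 681 and 656 under panobinostat and 496 and 400 under both, against 818 and 766 in vehicle. It passed in the combination (-0.83 ± 0.27, adjusted p = 0.0298, limma), a call lost without any 1 of the vehicle, panobinostat or combination libraries. Trametinib replicate 2 lay among the vehicle values and replicate 1 far below them, and without replicate 2 the trametinib change of -0.49 became -1.01 and passed. MRPS16 shares exons with DNAJC9 on the same strand in GENCODE 29, so its reads are uncertain.

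Other members that have drawn interest for functions outside translation were also read. MRPS30, linked to apoptosis, had 355 and 413 under trametinib, 573 and 554 under panobinostat and 384 and 437 under both, against 640 and 612 in vehicle. It fell with trametinib (-0.71 ± 0.13, adjusted p = 0.00135, limma) and in the combination (-0.61 ± 0.13, adjusted p = 0.00309, limma). MRPL41, also linked to apoptosis, changed by -0.19, 0.16 and -0.32 with trametinib, panobinostat and the combination against vehicle, none of which passed. MRPL36, a very small protein of the large subunit, changed by 0.03, 0.22 and -0.25, and none passed. MRPS36 was later found in the 2-oxoglutarate dehydrogenase complex and not in the ribosome, and RefSeq lists it as KGD4. It had 130 and 234 under trametinib, 196 and 230 under panobinostat and 276 and 234 under both, against 229 and 177 in vehicle. The single-drug libraries overlapped vehicle, both combination libraries were above it, and no comparison passed.

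**Figure D4:**
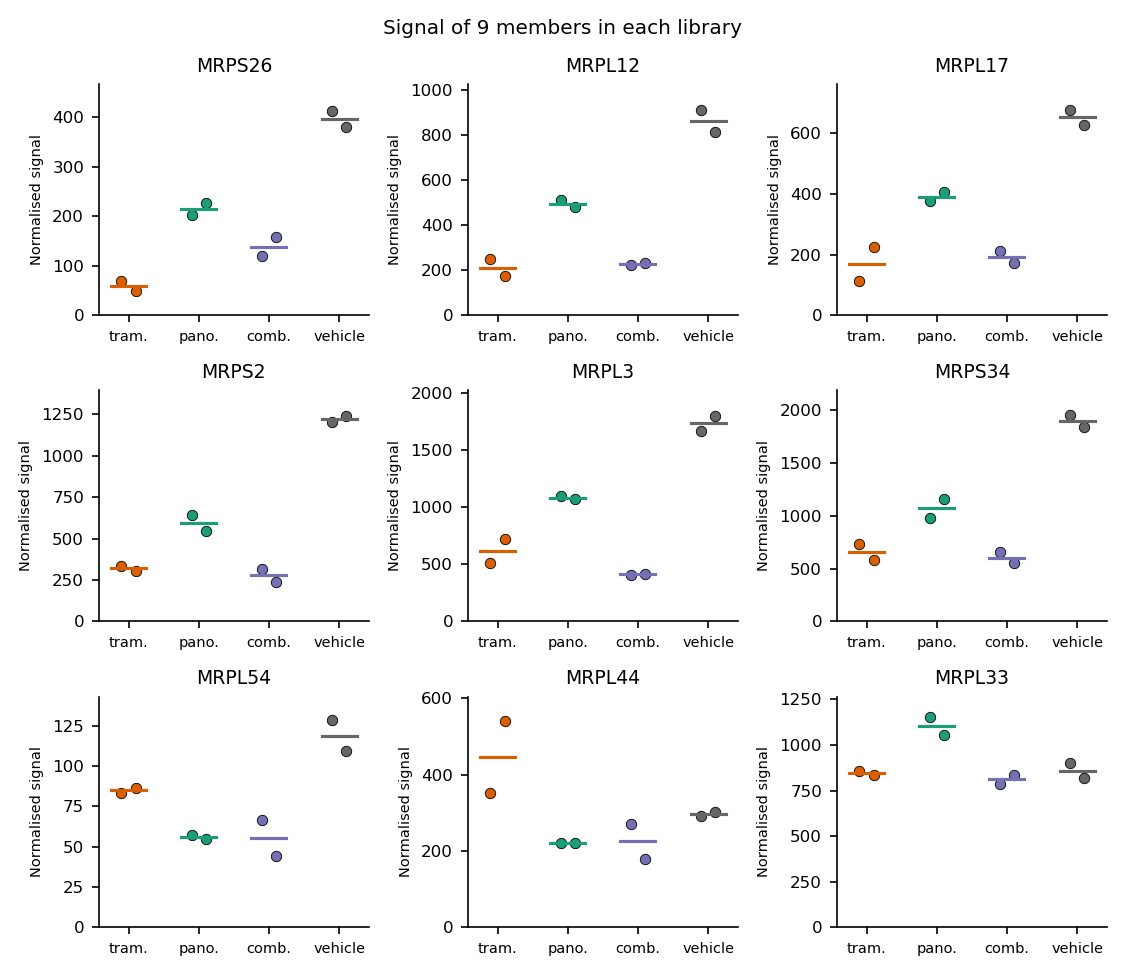
Normalised signal of 9 members in each library. Points are libraries, short lines are group means, and groups run from trametinib through panobinostat and combination to vehicle. In MRPS26, MRPL12, MRPL17, MRPS2, MRPL3 and MRPS34 all treated libraries lie below vehicle, MRPL44 is highest with trametinib (353 and 542), and MRPL33 is highest with panobinostat (1153 and 1056).

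The 3 comparisons with vehicle share the vehicle libraries, so their calls are not independent of each other. In none of them did 24 of the 76 members pass (31.6%), a share near the 33% of all tested genes. The 24 included MRPS21, which had 1023 and 1320 under trametinib, 1372 and 1279 under panobinostat and 1049 and 995 under both, against 1130 and 1195 in vehicle. MRPS21 has 8 pseudogenes in GENCODE 29, and its reads may be split or shared with them.

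With panobinostat added to trametinib, few members moved further. In the combination against trametinib, 6 of 76 members fell and 3 rose by limma (7.89% and 3.95%), where 15.2% of all tested genes fell and 17.6% rose, so both shares were below those of all genes. The median log2 change was -0.12, against 0.06 over all genes. MRPL44, which carries a domain related to RNase III, had 272 and 180 in the combination, against 353 and 542 with trametinib (-0.98 ± 0.24, adjusted p = 0.0135, limma). MRPL9 had 292 and 281 in the combination, against 472 and 530 with trametinib (-0.80 ± 0.13, adjusted p = 0.00161, limma). MRPL3 fell by a further 1.47-fold, MRPL30 by 1.45-fold and MRPS7, which binds the small subunit rRNA in bacteria, by 1.44-fold. MRPS26 went against them. It had 119 and 158 in the combination, against 69.2 and 49.2 with trametinib, and was 2.33-fold higher (adjusted p = 0.00496, limma). MRPL18 (1.53-fold) and MRPL13 (1.39-fold) were also higher.

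These few calls were sensitive to single libraries, and the shares of all tested genes with a library left out are not given. Without trametinib replicate 1 or 2, 22 and 14 members fell and 19 and 5 rose. Without combination replicate 1 or 2, 5 and 2 fell and 1 and 0 rose, and without either panobinostat or either vehicle library 4 fell and 1 rose. The calls of MRPL44 and MRPS26 were lost without combination replicate 2 and with the 2 groups alone, and those of MRPL3, MRPL30, MRPS7, MRPL18 and MRPL13 likewise, whereas that of MRPL9 held under every alternative.

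Adding trametinib to panobinostat moved more of them. In the combination against panobinostat, 17 of 76 members fell and 0 rose by limma (22.4% and 0%), where 13.1% of all tested genes fell and 10.9% rose. The median log2 change was -0.38, against 0.01 over all genes. MRPL3 had 409 and 417 in the combination, against 1098 and 1071 with panobinostat, and was 2.62-fold lower (adjusted p = 0.00014, limma). MRPL12 had 222 and 233 in the combination, against 511 and 480 with panobinostat, and was 2.17-fold lower (adjusted p = 0.00184, limma). In both genes the libraries of each group lay close together and the groups were far apart. MRPS2 was 2.14-fold lower, MRPL17 2.04-fold and MRPS23, a mitochondria-specific protein of the small subunit, 1.85-fold. The count was 35 with the 2 groups alone and 41 without either trametinib library. It was 10 and 9 without combination replicate 1 or 2, and 9 and 10 without panobinostat replicate 1 or 2, and the call of MRPL17 was lost without any of these 4. At an unadjusted p under 0.05, 0 members were higher, and edgeR and DESeq2 called 0 higher. Shares of all tested genes under these alternatives are not given, so the shifts in count cannot be read as particular to the family.

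Each drug's change alone was set beside its change on top of the other drug, which involve different libraries. For trametinib, the change against vehicle and that in the combination against panobinostat had the same sign in 63 of 76 members (Pearson r = 0.46, Spearman rho = 0.51 across members, which all come from the same 8 libraries). The median was -0.38 on top of panobinostat and -0.62 alone. For panobinostat the same sign was seen in 42 of 76 (r = 0.02, rho = 0.15), with a median of -0.12 on top of trametinib and -0.38 alone. Same-sign counts over all tested genes are not given.

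The interaction asks whether the change with both drugs departs from the sum of the single changes on the log2 scale. Of the 76 members, 0 were lower and 10 higher than that sum by limma (0% and 13.2%), where 9.04% of all tested genes were lower and 10.2% higher, so the share of higher calls was near that of all genes. The median interaction was 0.29, against 0.08 over all genes. Above the sum lay 57 of 76 members and 7189 of the 13320 tested genes. The median of the summed single changes was -1.05 and that of the combination -0.80. MRPS26 had the largest called value, 2.11 ± 0.35 (adjusted p = 0.00293, limma). It was followed by MRPL18 at 1.16 ± 0.26, MRPS12 at 1.09 ± 0.27, MRPL38 at 1.02 ± 0.24 and MRPL12 at 0.92 ± 0.26. MRPS2, MRPS34, MRPL19, MRPL37 and MRPL52 were the other called members. All 10 had fallen with each drug alone and in the combination, so a positive value here means a fall smaller than the sum of both falls. The count of higher calls was 1 without any 1 of the panobinostat or vehicle libraries, MRPS26 being the one that remained, 3 and 2 without combination replicate 1 or 2, and 27 and 19 without trametinib replicate 1 or 2. The 0 lower calls became 11 and 1 without trametinib replicate 1 or 2, and 1 with edgeR and with DESeq2. At an unadjusted p under 0.05, 1 member was lower. The shares of all tested genes called with a library left out are not given.

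**Figure D5:**
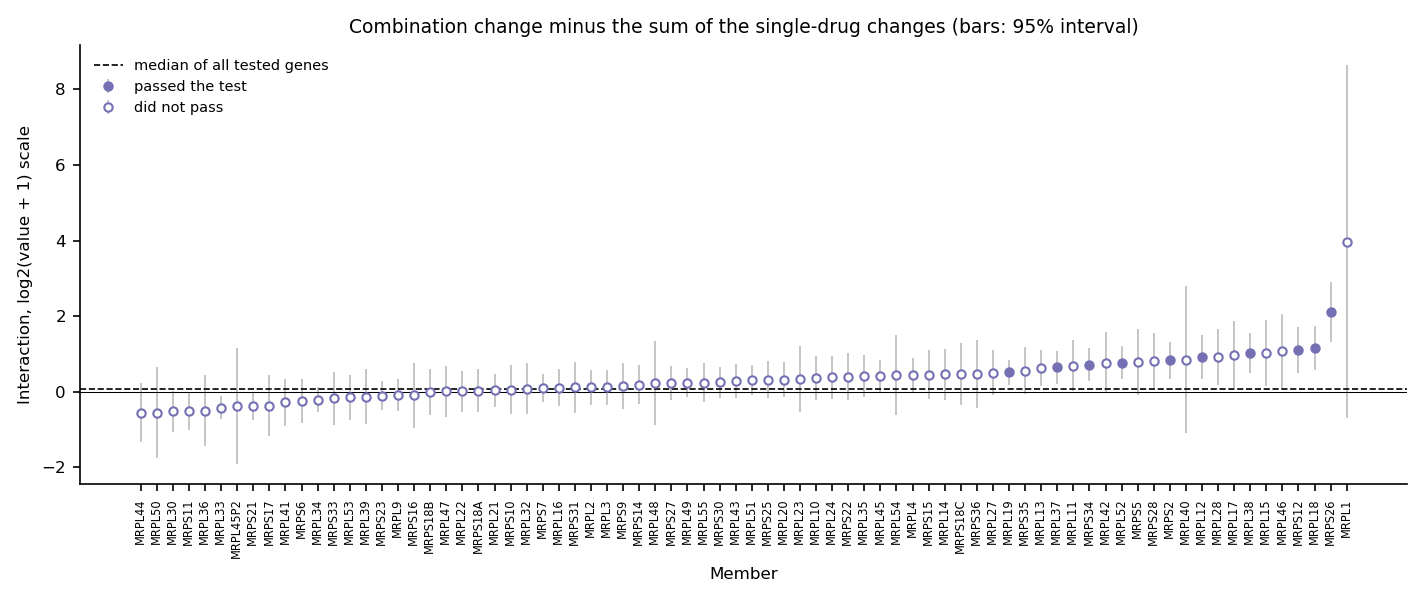
Interaction of each tested member, the combination change minus the sum of the single-drug changes, on the log2(value + 1) scale, with 95% intervals from the limma fit. Filled points passed the test and the dashed line is the median of all tested genes (0.08). The filled points lie at the right from MRPL19 (0.51) to MRPS26 (2.11), and the wide interval of MRPL1 comes with its library at 0.

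A wider set of genes of the same machinery was read next, from lists of known function. Of all tested genes, 27.4% fell and 23.7% rose under trametinib, 15.6% and 15% under panobinostat, and 25.5% and 24.5% under both. Another 7 mitochondrial ribosomal proteins carry other symbols in the table, 2 of them (MRPL57 and MRPL58) under the older symbols MRP63 and ICT1. Of these 7, 6 fell under trametinib (85.7%), 2 under panobinostat (28.6%) and 6 under both drugs (85.7%). GADD45GIP1, a large subunit protein, had 611 and 828 under trametinib, 787 and 830 under panobinostat and 486 and 583 under both, against 1356 and 1352 in vehicle. DAP3, a GTP-binding protein of the small subunit, had 911 and 712 under trametinib, 1278 and 1147 under panobinostat and 1110 and 1044 under both, against 1181 and 1172 in vehicle. DAP3 fell with trametinib and was higher in the combination than with trametinib (0.42, limma).

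Factors that build the ribosome or modify its rRNA numbered 25. Of these, 10 fell (40.0%, where 27.4% of all tested genes did) and 1 rose with trametinib, 7 fell (28.0%, against 15.6%) and 1 rose with panobinostat, and 13 fell (52.0%, against 25.5%) in the combination. MALSU1, a large subunit assembly factor, had 163 and 158 under trametinib, 267 and 243 under panobinostat and 232 and 234 under both, against 344 and 312 in vehicle. TFB1M, an rRNA methyltransferase, fell with trametinib (-0.90) and rose with panobinostat (0.90). Of 15 translation factors and related proteins, 7 fell (46.7%) and 1 rose with trametinib, 4 fell (26.7%) and 1 rose with panobinostat, and 6 fell (40.0%) in the combination. LRPPRC, which stabilises mitochondrial messages, had 1519 and 1195 under trametinib, 2839 and 3035 under panobinostat and 1709 and 1698 under both, against 3960 and 3756 in vehicle. TUFM, the elongation factor that brings aminoacyl-tRNA, had 1088 and 931 under trametinib, 1563 and 1482 under panobinostat and 1181 and 1208 under both, against 2374 and 2415 in vehicle, and fell in all 3 comparisons.

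Of 10 genes of mitochondrial transcription and DNA maintenance, 7 fell with trametinib, 3 fell and 1 rose with panobinostat, and 7 fell in the combination, where 27.4%, 15.6% and 25.5% of all tested genes fell. TFAM, which packages mitochondrial DNA, had 293 and 300 under trametinib, 343 and 430 under panobinostat and 338 and 339 under both, against 656 and 590 in vehicle. All treated libraries were below vehicle. Of 10 genes of import and the outer membrane, 8 fell and 1 rose with trametinib, 8 fell with panobinostat, and all 10 fell in the combination. TOMM40, the pore of the outer membrane translocase, had 446 and 457 under trametinib, 1035 and 916 under panobinostat and 416 and 327 under both, against 1963 and 2017 in vehicle. TIMM50, a receptor of the inner membrane translocase, was the 1 gene of this list that rose with trametinib (0.59).

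Of 9 nuclear regulators of mitochondrial biogenesis, 6 fell with trametinib, 4 fell and 1 rose with panobinostat, and 7 fell and 1 rose in the combination, again beside falls of 27.4%, 15.6% and 25.5% of all tested genes. MYC had 53.2 and 32.1 under trametinib, 5921 and 6139 under panobinostat and 44.5 and 89.8 under both, against 4021 and 4133 in vehicle. Its panobinostat change of 0.56 did not pass, so MYC was low in both groups given trametinib and not with panobinostat alone. The coactivator genes PPRC1 and PPARGC1B changed by -1.46 and -1.39 with trametinib and by -2.39 and -2.03 in the combination, and all 4 changes passed. PPRC1 also fell with panobinostat (-1.02), and PPARGC1B did not pass there (-0.01). PPARGC1A, another coactivator, went the other way with panobinostat (1.55) and in the combination (2.24), both of which passed. NRF1 changed by -0.20, -0.45 and -0.07 with trametinib, panobinostat and the combination, and passed in none. YY1, whose letters were looked for in the promoters, changed by -0.49, -0.44 and -0.61 in the same order. It passed as lower in each of these comparisons, and so did ESRRA, another gene of this list. Whether YY1 or ESRRA bears on the change of the members was not tested. The ETS factor subunit genes GABPB1 and GABPA changed by -0.96 and -0.06 with trametinib, by -0.50 and -0.90 with panobinostat and by -0.72 and -0.79 in the combination. GABPB1 passed with trametinib and in the combination, and GABPA with panobinostat and in the combination.

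A few members cannot be read gene by gene. MRPS24 had 2 reads in vehicle replicate 1 and 0 in the other 7 libraries, and in GENCODE 29 it shares exons with the read-through gene URGCP-MRPS24. The pseudogene MRPL42P5 was between 0 and 19.9 in every library. MRPL45P2 had 69.2 and 75.3 under trametinib, 34.7 and 29.2 under panobinostat and 53.9 and 25.9 under both, against 37.3 and 59.4 in vehicle, and passed in no comparison. In GENCODE 29, 33 of the 78 symbols had at least 1 pseudogene, 13 shared exons with another gene on the same strand and 24 with one on the opposite strand. The values of such members are uncertain to the extent that the authors' counting split or shared reads. Among those named, they include MRPL12, MRPS12, MRPS2, MRPL9, MRPS7, MRPL3, MRPL23, MRPL30, MRPL38 and MRPL44.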

How the data were processed

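RNA-seq libraries were prepared from total RNA with a NuGEN Ovation kit meant for FFPE material, per the labels' protocols. The submitters' processing notes list TopHat2 2.0.13, Cufflinks 2.2.1 and DESeq2, and the build hs37d5 for 4 of the 8 libraries. The authors deposited signal, their normalised counts, in 1 table. In each library 100% of the values were multiples of a fixed step (tolerance 0.001), which gave back whole reads, used in alternatives.

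All 8 libraries entered 1 fit of limma 3.58.1 (R 4.3.3), with an intensity trend, on log2(value + 1) for the 13320 genes with a mean of at least 10. A gene passed under a Benjamini-Hochberg adjusted p of 0.05 over these genes. The fit had 4 residual and 5.32 prior degrees of freedom. Fold changes are on the log2(value + 1) scale, which understates changes between low values. Where a library is at 0, the fitted change can exceed that of the group means, as for MRPL1. The code was tested on simulated data.

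Alternatives were edgeR 4.0.16 and DESeq2 1.42.0 on the recovered reads, TMM scaling, other filters, a pseudocount of 5, library weights, the 2 groups alone, a replicate block and leaving out each library. The members, lists, naming rule and tests were chosen with earlier results of these data known. Named were the 5 largest falls and rises per comparison among protein-coding members that passed, reached a mean of 50 in the higher group and did not overlap between groups. Also named were members known for disease, apoptosis or paralogy, those that passed against the family's direction, and up to 4 members of each other list. MRPL40, MRPS21, GABPA, NRF1, YY1, ESRRA, PPARGC1A, TIMM50 and the printed promoters were chosen after their values were seen. Coordinates in the build of the reads are not used here.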

Additional observations from a re-analysis of the deposited data

Results flagged for a closer look

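In 10 members the change with both drugs differed from the sum of the single-drug changes by the interaction test (limma, adjusted p under 0.05 over all genes, with 2 libraries per group). The values, in log2, were 2.11 in MRPS26, 1.16 in MRPL18, 1.09 in MRPS12, 1.02 in MRPL38, 0.92 in MRPL12, 0.84 in MRPS2, 0.77 in MRPL52, 0.72 in MRPS34, 0.64 in MRPL37 and 0.51 in MRPL19. All were positive, and 10.2% of all tested genes were called in that direction. The 10 calls fell to 1, that of MRPS26, without any 1 of the panobinostat or vehicle libraries. Groups of 2 libraries are too small for a test of a sample that stands apart.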

How the results depend on the processing

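The median changes of the members kept their direction under every alternative, between -0.66 and -0.57 for trametinib, -0.43 and -0.35 for panobinostat and -0.82 and -0.71 for the combination against vehicle. Of 180 results on named genes, 75 were called, 40 of them under every alternative run, and 0 turned direction as called values.

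With the 2 groups alone, members lower and higher numbered 47 and 2 for panobinostat against vehicle, 1 rise was called in the combination against vehicle, 1 fall and 0 rises in the combination against trametinib, and 35 falls in the combination against panobinostat. With library weights these were 44 falls and 2 rises for panobinostat, 1 rise in the combination against vehicle, 3 falls against trametinib and 35 against panobinostat. With DESeq2, 2 rose with trametinib and 12 fell in the combination against trametinib. The 0 lower interaction calls became 1 with DESeq2, with edgeR and with TMM scaling. Shares of all tested genes called under these settings are not given, so these counts cannot be read as particular to the family.

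Leaving out 1 library at a time gave 30 to 48 falls and 0 to 5 rises for trametinib, 7 to 42 and 0 to 2 for panobinostat, 33 to 58 and 0 to 1 for the combination, each against vehicle. It gave 2 to 22 falls and 0 to 19 rises for the combination against trametinib, and 9 to 41 falls and 0 rises against panobinostat. Interaction calls ranged from 1 to 27 higher and 0 to 11 lower. The shares of all tested genes called with a library left out are not given, so these shifts cannot be read as particular to the family. Their cause was not tested. Replicate numbers did not pair the libraries, since deviations of same-numbered libraries correlated between -0.023 and 0.022. With the replicate number as a block, 41, 23 and 43 members fell with trametinib, panobinostat and the combination. In that fit 6 and 14 fell in the combination against trametinib and panobinostat, and 8 interaction calls were higher. Its shares of all tested genes are not given. How far read depth limited the calls was not tested, and the libraries held between 6897784 and 16861001 reads in genes.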
